A study of Mus musculus with 2 samples.

Results

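The genes described here specify spinal motor neurons and equip them to release acetylcholine. They are picked out by gene symbol, and no measured value enters the rule: 6 transcription factors (Isl1, Isl2, Lhx3, Lhx4, Mnx1 and Foxp1) and 4 cholinergic effector genes (Chat, Slc18a3, Slc5a7 and Ache). All 10 were found among the 55536 genes of the deposited tables. The choice of members was nonetheless made with earlier results of these data known. The tissue was neural tube, the embryonic structure from which the spinal cord forms, dissected from B6NCrl mouse embryos at day 12.5 of gestation. There was 1 group of 2 libraries, with male and female embryos mixed, no treatment and no engineered allele: replicate 1 pooled 120 embryos and replicate 2 pooled 88. Each library was made from 10 ng of total RNA primed with oligo-dT, and the labels give no question beyond profiling this tissue. With a single group no conditions were compared, so the measurements are levels, transcript shares and the difference between the 2 pools.

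Motor neurons are the spinal neurons that send their axons out of the cord to muscle and to autonomic ganglia. Their fate is set by LIM homeodomain factors, in which Isl1 and Lhx3 are held together by the cofactor Ldb1 in one complex that binds DNA at motor neuron genes. In the mature cell, acetylcholine is made by choline acetyltransferase, loaded into vesicles by a dedicated transporter and broken down after release by acetylcholinesterase. Several of the factors are also used elsewhere: Isl1 and Isl2 in sensory ganglion neurons, Lhx3 and Lhx4 in V2 interneurons, and Foxp1 in many tissues. In bulk tissue, fewer cells of a type and less RNA per cell cannot be told apart.

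The libraries held 33529531 estimated counts in replicate 1 and 35461403 in replicate 2, of which ERCC spike-ins, synthetic RNAs added to each sample, took 2.99% and 2.89%. The 10 genes held 14363 and 16797 counts, or 0.0442% and 0.0488% of the counts on genes. Levels are in TPM, a measure of transcript abundance corrected for transcript length, and 1 read on a transcript of 1 kb was worth 0.0477 and 0.0462 TPM. All 12 listed pan-neuronal genes had at least 1 TPM in both libraries, as did 60.9% of protein-coding genes. Tubb3, the tubulin of young neurons, was at 967 ± 20.3 TPM (SD, n = 2). Other tissue with neurons could show the same, so these genes do not test the neural tube label.

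All 10 genes reached 1 TPM in both libraries, as did 28.5% of all genes and 60.9% of the 22028 protein-coding genes. Their mean levels ran from 3.90 TPM for Chat to 126.5 TPM for Isl1. Factors and effectors overlapped in level, with Mnx1, the lowest factor, at 6.75 TPM and Slc18a3, the highest effector, at 24.8 TPM.

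Isl1, the LIM homeodomain factor required for motor neuron generation, was the highest of the 10. Its level was 104.7 TPM in replicate 1 and 148.4 TPM in replicate 2. The mean was 126.5 ± 30.9 (SD, n = 2), from 4582 and 6535 estimated counts. That level exceeded 94.3% of protein-coding genes. Isl1 (ENSMUSG00000042258.13) lies on the minus strand of chromosome 13 at 116298281 to 116309689 of mm10.

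Isl2, the paralog of Isl1 that is switched on in postmitotic motor neurons, had 36.3 TPM in replicate 1 and 49.3 TPM in replicate 2. Its mean was 42.8 ± 9.17 TPM, and Isl1 exceeded it 2.88-fold and 3.01-fold within the respective libraries. Isl2 (ENSMUSG00000032318.12) lies on the plus strand of chromosome 9 at 55538672 to 55546180. The coding sequences of the leading Isl1 and Isl2 transcripts were 73.3% identical over 1036 aligned bases, and the longest identical run was 23 bases.

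Foxp1, a forkhead factor that marks the motor neurons of the limb-innervating lateral column, stood between the Isl genes at 64.3 and 72.4 TPM. Its mean of 68.4 ± 5.70 TPM came from 3614 and 4211 estimated counts. Foxp1 (ENSMUSG00000030067.17) covers a long stretch of the minus strand of chromosome 6, from 98925338 to 99522721. Isl1 exceeded Foxp1 by a log2 ratio of 0.70 in replicate 1 and 1.04 in replicate 2.

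Lhx3, the LIM homeodomain partner of Isl1 in the motor neuron complex, had 19.0 TPM in replicate 1 and 13.3 TPM in replicate 2 (mean 16.1 ± 4.02). Isl1 was 5.52-fold and 11.2-fold above it. Lhx3 (ENSMUSG00000026934.15) lies on the minus strand of chromosome 2 at 26200212 to 26208289. Its paralog Lhx4, which acts with it in early motor neurons, had 17.8 TPM and 9.70 TPM (mean 13.8 ± 5.76). Lhx4 (ENSMUSG00000026468.14) is on the minus strand of chromosome 1 at 155698031 to 155751684. The ranges of the 2 paralogs over the libraries overlapped, so their order is not settled. The longest coding sequences of the paralogs, those of Lhx3-201 and Lhx4-201, were 71.4% identical over 1144 aligned bases, with no identical run beyond 20 bases.

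Mnx1, also known as HB9, is the homeodomain factor that holds the motor neuron programme apart from that of V2 interneurons. It was the lowest of the 6 factors, at 8.03 TPM in replicate 1 and 5.46 TPM in replicate 2 (mean 6.75 ± 1.82). Lhx3 exceeded it 2.36-fold and 2.43-fold, a ratio that differed little between the libraries. Mnx1 (ENSMUSG00000001566.9) lies on the minus strand of chromosome 5 at 29473034 to 29478470.

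Among the effectors Slc18a3, the vesicular acetylcholine transporter, was the highest. It had 25.9 TPM in replicate 1 and 23.7 TPM in replicate 2 (mean 24.8 ± 1.62), from 1257 and 1186 estimated counts. Chat, the enzyme that makes acetylcholine, was the lowest of all 10 genes, with 4.35 and 3.45 TPM (mean 3.90 ± 0.636) from 235 and 185 counts. Slc18a3 was thus 5.96-fold and 6.86-fold above Chat in the respective libraries. The gap was wider in tables quantified against an older gene annotation, as given below.

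These 2 genes share one locus. Chat (ENSMUSG00000021919.8) lies on the minus strand of chromosome 14 at 32408203 to 32465989, and Slc18a3 (ENSMUSG00000100241.1) on the same strand at 32462438 to 32464850. The whole of Slc18a3, a single exon, falls inside intron 1 of the 15 introns of transcript Chat-201, an intron of 4893 bases. The Slc18a3 start is 1107 bases downstream of the Chat-201 start, and no base of Slc18a3 is shared with any annotated Chat exon. In these tables, reads of unspliced Chat RNA from that intron could not be told apart from reads of Slc18a3.

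The start regions of the pair are shown because 2 genes of one pathway start so close together yet differ so far in level. Each is 250 bases before to 50 bases after a RefSeq gene start, read 5′ to 3′ on the minus strand of GRCm38.p6, with any TAAT homeodomain core, on either strand, in capitals. The Chat window is chr14:32465860-32466159 and the Slc18a3 window is chr14:32464801-32465100.
Chat: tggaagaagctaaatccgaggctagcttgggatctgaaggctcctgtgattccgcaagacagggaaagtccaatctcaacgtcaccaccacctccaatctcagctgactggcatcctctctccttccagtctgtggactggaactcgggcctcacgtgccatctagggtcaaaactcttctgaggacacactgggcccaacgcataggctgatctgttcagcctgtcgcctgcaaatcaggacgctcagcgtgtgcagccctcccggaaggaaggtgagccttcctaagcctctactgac
Slc18a3: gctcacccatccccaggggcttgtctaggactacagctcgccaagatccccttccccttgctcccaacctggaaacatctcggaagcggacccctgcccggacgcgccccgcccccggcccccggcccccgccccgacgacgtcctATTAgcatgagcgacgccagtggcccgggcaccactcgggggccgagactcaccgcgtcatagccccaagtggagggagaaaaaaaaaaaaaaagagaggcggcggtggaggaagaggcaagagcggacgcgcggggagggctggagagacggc
The Slc18a3 window holds 1 TAAT core, at position -104 from the start, and the Chat window holds none. Their GC content was 67% and 55.7% respectively.

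Slc5a7, the high-affinity transporter that takes choline back into the nerve ending, had 5.90 and 6.70 TPM (mean 6.30 ± 0.566). Slc5a7 (ENSMUSG00000023945.7) is on the minus strand of chromosome 17 at 54273590 to 54299034. Ache, which encodes acetylcholinesterase, had 16.1 and 18.5 TPM (mean 17.3 ± 1.71). Ache (ENSMUSG00000023328.14) is on the plus strand of chromosome 5 at 137287519 to 137294466. Within each library Ache exceeded Slc5a7 by log2 ratios of 1.45 and 1.47, the steadiest of the ratios given here between effectors.

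**Figure D1:**
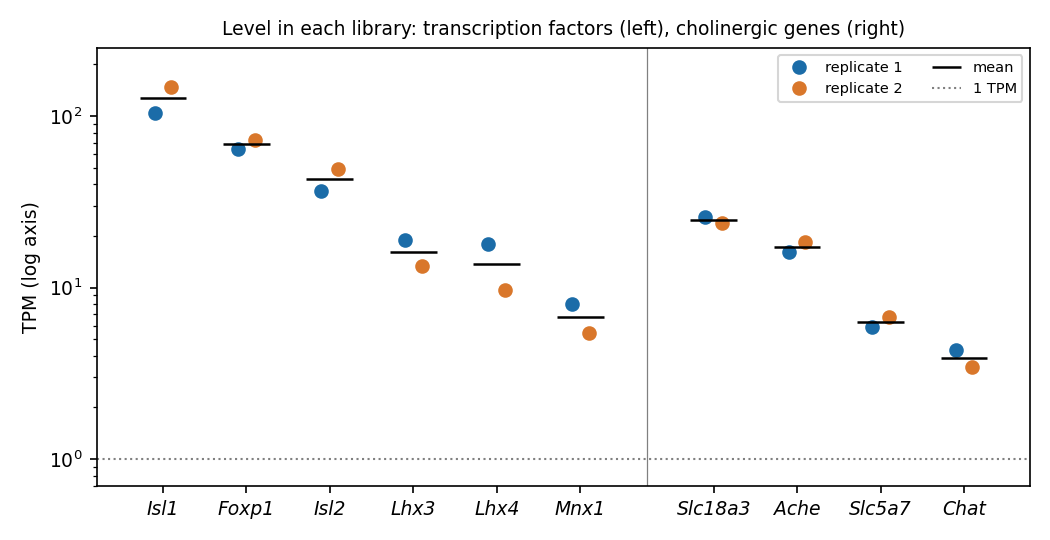
TPM on a log axis for each gene, with 1 point per library, a bar at the mean of both, and a dotted line at 1 TPM. Isl1 is highest at 104.7 and 148.4 TPM, Chat is lowest at 4.35 and 3.45 TPM, and the points of Lhx3, Lhx4 and Mnx1 lie lower in replicate 2 while those of Isl1 and Isl2 lie higher.

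From high to low the order was Isl1, Foxp1, Isl2, Slc18a3, Ache, Lhx3, Lhx4, Mnx1, Slc5a7 and Chat. Neighbours were called apart where both libraries of one exceeded both libraries of the other. By that rule 3 neighbouring pairs were not apart, namely Ache and Lhx3, Lhx3 and Lhx4, and Mnx1 and Slc5a7.

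Summed over the group, the 6 factors had 250.2 TPM in replicate 1 and 298.5 TPM in replicate 2, against 52.3 TPM in both for the 4 effectors. The log2 ratio of the sums was 2.26 and 2.51 (mean 2.39 ± 0.18), or 4.78-fold and 5.70-fold. Isl1 alone gave 41.9% and 49.7% of the factor sum, and Slc18a3 gave 49.6% and 45.2% of the effector sum. Taken pair by pair, the factor was above the effector in both libraries in 17 of 24 pairs and below it in both in 4. The 4 were Lhx3, Lhx4 and Mnx1 against Slc18a3, and Mnx1 against Ache. With medians in place of sums the log2 difference was 1.23.

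The transcript tables give the share of each gene's TPM in each annotated transcript. Of 70 annotated transcripts of the 10 genes, 21 reached 10% of their gene in at least 1 library. The transcript with the highest mean share was protein coding for all 10 genes, and it led in both libraries for 9 of them. The exception was Lhx4. These shares are estimates that divide reads common to several transcripts, so the posterior standard deviation (SD) of the count is given for some of them.

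Lhx3 has 2 coding transcripts with separate first exons. Lhx3-201 held 43.0% of the gene's TPM in replicate 1 and 55.9% in replicate 2. Lhx3-202, which starts 1714 bases upstream and has 88 coding bases of its own, held 29.5% and 15.9%. Its estimated count was 244 (posterior SD 35.3) in replicate 1 and 95.2 (posterior SD 32.4) in replicate 2, and the log2 ratio was -1.43. For Lhx3-201 the counts were 363 and 341, and the log2 ratio was -0.18. Of the 215 fewer counts on the gene in replicate 2, 149 were assigned to Lhx3-202. Retained-intron transcripts made up 27.5% and 28.3% of the gene.

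The start regions of these transcripts are shown because most of the count difference was assigned to the transcript of the upstream one. The upstream window is chr2:26208200-26208499 and the inner window is chr2:26206526-26206825, both on the minus strand of GRCm38.p6, with TAAT cores on either strand in capitals.
Lhx3 upstream: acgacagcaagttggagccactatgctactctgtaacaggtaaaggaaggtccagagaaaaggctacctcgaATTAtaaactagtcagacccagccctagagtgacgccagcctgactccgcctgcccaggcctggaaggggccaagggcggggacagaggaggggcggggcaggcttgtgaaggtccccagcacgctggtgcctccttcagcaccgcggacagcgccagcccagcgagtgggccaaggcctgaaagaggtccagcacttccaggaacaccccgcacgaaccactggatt
Lhx3 inner: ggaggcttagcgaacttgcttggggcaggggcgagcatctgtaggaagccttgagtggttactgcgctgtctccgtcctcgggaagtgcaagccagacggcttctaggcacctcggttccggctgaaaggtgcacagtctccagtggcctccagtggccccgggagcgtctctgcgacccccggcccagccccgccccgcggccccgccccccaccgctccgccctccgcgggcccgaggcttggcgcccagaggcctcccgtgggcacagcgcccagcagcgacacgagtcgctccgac
The RefSeq start in the upstream window is 40 bases from that of Lhx3-202, and the one in the inner window is that of Lhx3-201. The upstream window holds 1 TAAT core at position -178, overlapped by a TATAAA match at position -176. Neither motif is in the inner window, whose GC content of 71% compares with 61% upstream.

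Lhx4 is divided between Lhx4-202, a short model of 928 bases, and Lhx4-201, a model of 5514 bases. Lhx4-202 held 56.0% of the TPM in replicate 1 and 47.1% in replicate 2, and Lhx4-201 held the rest. In counts the order is the opposite, with 891 and 602 on Lhx4-201 against 173 and 82.0 on Lhx4-202, because TPM divides by length. Lhx4-202 starts 9657 bases upstream of Lhx4-201. Both were lower in replicate 2, by log2 ratios of -1.15 and -0.65.

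Isl1-201 held 75.6% and 73.3% of Isl1, and Isl1-202, whose coding sequence is 69 bases shorter, held 16.9% and 15.9%. Isl2-201 held 85.7% and 79.9% of Isl2. A transcript annotated for nonsense-mediated decay, Isl2-202, held 11.8% and 12.5%, on 128 counts (posterior SD 44.1) and 191 counts (posterior SD 63.3). All Mnx1 counts, 361 and 254, were assigned to Mnx1-202. The posterior SDs of 34.5 and 22.7 were the same for Mnx1-201, a model with the same start and 1207 of 1212 coding bases in common, so the tables do not separate these models well.

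Foxp1 was the most divided, with 20 of its 31 annotated transcripts above 0. Foxp1-225 held 37.8% and 38.3% of the TPM and Foxp1-204 held 20.7% and 21%. In counts the order is the opposite, with 1975 and 2332 on Foxp1-204, of 7177 bases, against 890 and 1051 on Foxp1-225, of 1848 bases. Foxp1-225 starts 407086 bases downstream of Foxp1-204 and has a coding sequence of 1731 bases against 2115. A non-coding transcript of 420 bases, Foxp1-216, held 13.6% and 8.56%. The region of the internal start, chr6:99028249-99028548 on the minus strand of GRCm38.p6, is shown because it covers the start of the transcript that leads by share of TPM.
Foxp1 internal: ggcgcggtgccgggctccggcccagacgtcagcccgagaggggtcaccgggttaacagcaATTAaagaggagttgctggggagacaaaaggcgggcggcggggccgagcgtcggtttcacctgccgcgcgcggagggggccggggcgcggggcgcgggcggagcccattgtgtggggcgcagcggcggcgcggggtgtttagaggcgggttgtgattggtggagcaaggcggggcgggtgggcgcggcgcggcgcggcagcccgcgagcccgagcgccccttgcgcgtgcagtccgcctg
It holds 1 TAAT core, in capitals, at position -190 and has a GC content of 75.3%.

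Of the cholinergic genes, Chat and Slc5a7 had large retained-intron shares. Chat-201 held 64.9% and 57.1% of Chat, and the retained-intron transcript Chat-205 held 35.1% and 38.8%. For Slc5a7 the coding Slc5a7-201 held 53.4% and 50.6% and the retained-intron Slc5a7-202 held 34.5% and 37.9%, on 170 counts (posterior SD 28.4) and 219.5 counts (posterior SD 30.0). In the tables quantified against the older GENCODE release M4, Chat and Slc5a7 each had all of their TPM in 1 transcript. There the mean level was 2.85 TPM for Chat and 5.32 TPM for Slc5a7. With Slc18a3 at 26.1 TPM there, its gap to Chat was wider than in the M21 tables. The short Slc5a7-203 held 12.1% and 11.5% on only 3.14 and 3.51 counts.

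Ache was mostly Ache-201, with 81.3% and 76.2%, beside Ache-202 with 17.5% and 22.9%. Ache-201 and Ache-202 have the same coding sequence, and the count of Ache-202, 122 and 191, had posterior SDs of 66.5 and 75.3. Slc18a3 has a single annotated transcript.

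**Figure D2:**
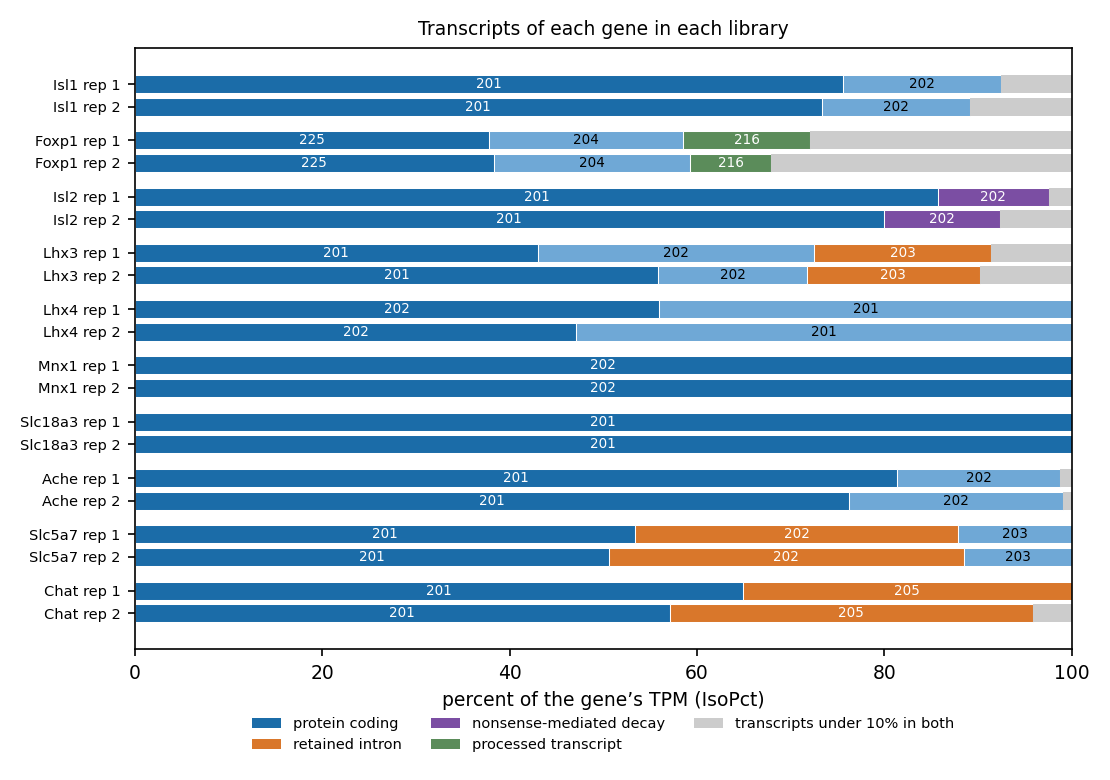
Percent of each gene's TPM in each transcript, 1 bar per gene and library, coloured by annotated type and numbered by GENCODE transcript name, with transcripts under 10% in both libraries in grey. Lhx3-202 shrinks from 29.5% to 15.9%, Chat and Slc5a7 carry retained-intron shares of 34.5% to 38.8%, and all TPM of Mnx1 and of Slc18a3 is assigned to 1 transcript each.

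Promoter windows were available from RefSeq for all 10 genes, 13 in all. TAAT on either strand was in 6 of these 13 windows, belonging to 5 genes, and in 58.0% of 32851 windows of the same length genome-wide. The longer TAATTA was in 1 of 13, of Foxp1, against 5.29%. The cAMP response element TGACGTCA was in 1 of 13, at position -11 of Isl2, against 1.79%. TATAAA was in 2 of 13, those of Lhx3 upstream and Slc5a7, against 13.6%. These matches describe letters in the windows only.

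The 2 pools differed in these genes. Differences are log2 ratios of replicate 2 over replicate 1 of the estimated counts after TMM scaling, with an exact 95% Clopper-Pearson interval that covers counting error only, and a gene was counted as past the threshold at 1.5-fold. No replicate check and no p-value exist for them. Lhx4 and Mnx1 were past 1.5-fold, both lower in replicate 2, and no member was past it in the higher direction. Over all 20125 genes tested, 11.2% were past 1.5-fold in either direction, 6.63% lower and 4.57% higher. Many of those genes have few counts: among the 10813 genes with mean counts in the range of the members, 210 to 5559, 0.897% were past 1.5-fold, 0.536% lower and 0.361% higher.

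On Lhx4 there were 1064 counts in the first pool and 684 in the second, and the log2 ratio was -0.72 (interval -0.87 to -0.59). Its TPM differed by more than its counts because the effective length assigned to it was 2848 bases in replicate 1 and 3256 in replicate 2. Mnx1 had 361 and 254 counts and a log2 ratio of -0.59 (-0.83 to -0.36). Its log2 ratio was -0.54 under spike-in scaling and -0.48 as a ratio of TPM + 1, and it was past 1.5-fold in neither. Lhx3 fell just short of the threshold, with 762 and 547 counts and a log2 ratio of -0.57 (-0.73 to -0.41).

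Isl1 and Isl2 lay on the other side, with log2 ratios of 0.42 (0.37 to 0.48) and 0.37 (0.26 to 0.47). Foxp1 was close to even at 0.13 (0.07 to 0.20). Among the effectors Chat was lower in replicate 2, at -0.43 (-0.72 to -0.15), and Slc18a3 at -0.17 (-0.29 to -0.06). Ache was at 0.18 (0.03 to 0.33) and Slc5a7 at 0.14 (-0.03 to 0.31), the only interval of the 10 that includes 0.

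At a lower threshold, a log2 ratio of 0.32, 2 members were higher, Isl1 and Isl2, and 4 were lower, Lhx3, Lhx4, Mnx1 and Chat. The matching share of all genes tested was 10.1% higher and 13.2% lower, 23.3% in either direction. Of genes in the same count range 2.62% were higher and 2.59% lower, 5.21% in all. At 2-fold none of the 10 members was called, against 3.89% of all genes tested and 0.0832% of those in the count range. The median absolute log2 ratio of the members was 0.39, against 0.09 for genes in that count range. Of those genes, 0.333% lay farther from 0 than Lhx4, 0.814% farther than Mnx1, 0.962% farther than Lhx3, 2.46% farther than Isl1 and 31.2% farther than Foxp1. Median signed log2 ratios were -0.22 for the factors, -0.02 for the effectors and close to 0 for all genes tested.

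**Figure D3:**
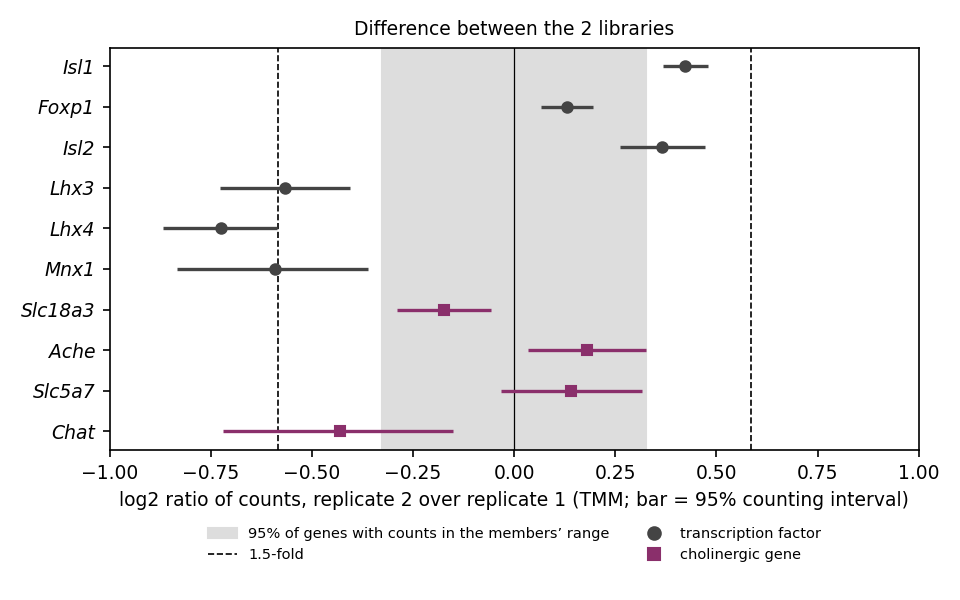
Log2 ratio of counts, replicate 2 over replicate 1, with exact 95% counting intervals, factors as circles and cholinergic genes as squares. The grey band holds 95% of genes with counts in the range of the members, within 0.33 of 0, and dashed lines mark 1.5-fold: Isl1 and Isl2 lie to the right of the band, Lhx3, Lhx4, Mnx1 and Chat to the left, and the others inside it.

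Because a ratio of 2 members is taken within a library, it does not depend on scaling. Isl1 over Mnx1 was 13.0-fold in replicate 1 and 27.2-fold in replicate 2, and Isl2 over Mnx1 had log2 ratios of 2.18 and 3.17. Isl1 over Isl2 and Lhx3 over Mnx1 moved far less, as given above.

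Genes of other cell types also differed between the pools. Sensory ganglia lie beside the cord, and 14 of 14 listed sensory ganglion genes were higher in the second pool. Their log2 ratios ran from 0.03 to 1.67 with a median of 0.35, against a median close to 0 for all genes tested. Their summed level was 406 TPM in replicate 1 and 532 TPM in replicate 2. This list and those below were chosen with earlier results of these data known, so such counts only describe the lists. Over all genes tested, 4.57% were past 1.5-fold higher in replicate 2. The 3 of this list past it were Avil at 0.82, Scn10a at 0.99 and the heat receptor Trpv1 at 1.67. Trpv1 had only 14 and 52 counts. The highest was the homeodomain factor Pou4f1, with 90.8 and 114.3 TPM. None of the 14 was at 0 in either library, and some are also made by spinal neurons. Their part in the higher Isl1 and Isl2 of replicate 2 was not tested.

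The most caudal Hox genes went the other way. Of 7 tail bud and notochord genes tested, 4 were past 1.5-fold lower in replicate 2, against 6.63% of all genes tested. All 4 were Hox genes. They were Hoxa13 at -3.19 (50 and 4 counts), Hoxb13 at -2.81, Hoxd13 at -2.06 and Hoxc13 at -1.46. Of the others, T was at -0.50 on 42 and 31 counts, short of 1.5-fold, and Wnt3a was higher in replicate 2 at 0.24. The list difference was thus carried by its Hox genes. The list summed to 27.6 TPM in replicate 1 and 11.3 TPM in replicate 2, and its members Cdx2 and Noto were at 0 in both. Skeletal muscle genes were lower in 11 of 12 cases, with a median of -0.47 and sums of 316 and 233 TPM. Actc1 at -0.60, Myf5 at -1.09 and the acetylcholine receptor subunit Chrnd at -0.67 were past 1.5-fold, Chrnd on only 28 and 18 counts. The 1 muscle gene that was higher in replicate 2, at 0.33, encodes another acetylcholine receptor subunit. Of 9 listed genes of V2 interneurons, cells that also use Lhx3 and Lhx4, all 9 were lower, with a median of -0.18. They summed to 50.3 and 45.2 TPM, and Foxn4 at -0.92, on 57 and 31 counts, was past 1.5-fold. The part of these lists in the lower Lhx3, Lhx4 and Mnx1 of replicate 2 was not tested.

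**Figure D4:**
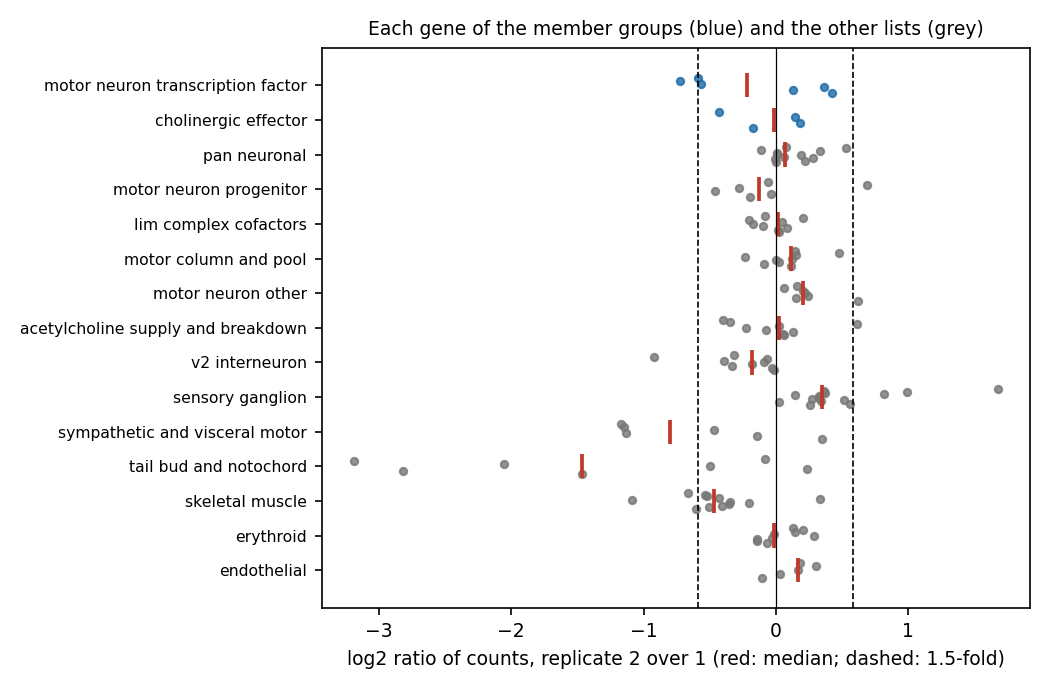
Log2 ratio of counts, replicate 2 over replicate 1, for every tested gene of the member groups in blue and of 13 other lists in grey, with red bars at the medians and dashed lines at 1.5-fold. Sensory ganglion genes lie right of 0 with a median of 0.35, 6 of 7 tail bud genes left with a median of -1.46, and the factors spread from -0.72 to 0.42.

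Other genes of the motor neuron pathway were present alongside. The share of all protein-coding genes at 1 TPM in both libraries was 60.9%. Cofactors of LIM complexes were all at 1 TPM or more, 9 of 9, with none past 1.5-fold and a median log2 ratio of 0.02. The single-stranded DNA-binding cofactor Ssbp3 was highest at 252 ± 14.8 TPM, and Ldb1, the protein that joins LIM factors, had 111 ± 2.10 TPM, near the level of Isl1. Lmo3 and Ldb2 were the lowest, at 15.2 and 15.4 TPM.

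Progenitor genes reached 1 TPM in 6 of 6 cases, with sums of 88.4 and 80.1 TPM and a median of -0.13. Neurog2, the proneural factor of this domain and others, led at 41.4 ± 3.17 TPM. Olig2, which defines motor neuron progenitors, had 2.28 ± 0.0283 TPM and Olig1 had 3.21 ± 1.12. Olig1 was the 1 gene past 1.5-fold, higher in replicate 2 at a log2 ratio of 0.68 on 104 and 179 counts. The other 5 progenitor genes were lower in replicate 2.

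Genes of motor columns and pools reached 1 TPM in 8 of 9 cases, with none past 1.5-fold and a median of 0.11. Aldh1a2, the retinoic acid enzyme of limb-level motor neurons that is also made by meninges, had 75.2 ± 5.71 TPM, and Lhx1, a lateral motor column factor also used by interneurons, had 54.5 ± 0.742. Nos1, made by preganglionic motor neurons, was lowest at 0.835 ± 0.0778 TPM. Of 7 other genes made by motor neurons, 7 had ratios above 0, with a median of 0.21, and Prph, the intermediate filament of peripherally projecting neurons including sensory ones, was past 1.5-fold at 0.62, with 85.1 and 132.2 TPM.

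Genes that supply or break down acetylcholine but are not restricted to cholinergic cells were summed at 508 and 529 TPM. Acly, which makes the acetyl-CoA used in many pathways, led at 288 ± 13.2 TPM. The cholinesterase Bche had 3.34 and 4.82 TPM and was the 1 gene of 9 past 1.5-fold, at 0.61, while the median of the list was 0.03. Prima1 and Colq, which anchor acetylcholinesterase, were lowest at 2.15 and 0.275 TPM.

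Some neighbouring genes overlap the members, and the labels name no strand-specific step. Gm2990, antisense at the Chat start, had 4.83 and 4.98 TPM. Gm27196, antisense at Lhx3, had 0.49 and 0.30 TPM, and Gm17226, antisense at Isl2, had 0.42 and 0.88 TPM. Gm20696 lies on the same strand, overlaps Foxp1 in part and had 3.73 and 2.51 TPM. Reads of such pairs cannot be told apart where their exons overlap. The posterior SD of the gene count was 0 in both libraries for 8 members, and it was 0.98 and 0.74 for Lhx3 and 3.10 and 2.42 for Foxp1.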

How the data were processed

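Polyadenylated RNA was measured in 2 libraries of 1 group, grouped by their replicate labels. The authors deposited gene and transcript tables on mm10 against GENCODE M21, used here, and M4, an alternative. The aligner and quantifier were not given in the sources used here. Tables hold, per the file headers, an estimated count (reads shared out among genes, not always whole), TPM, and for transcripts the percent of the gene's TPM, with posterior standard deviations of the counts. TPM is scaled over the whole table, spike-ins included.

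All 55536 gene IDs were named from GENCODE M21. The members and the 13 other lists of 116 genes were chosen with earlier results of these data known. Levels are deposited TPM, as mean ± SD. For the difference between libraries, estimated counts were rounded, scaled by TMM, kept at 10 counts or more in either library, and given a prior count of 2. The libraries came from separate pools, and intervals cover counting error only, and no molecular identifiers are named in the labels, so PCR copies may count as reads. A count of 0 would allow 3 counts, or 0.143 and 0.138 TPM at 1 kb.

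All members are named, as are up to 4 highest and the 2 lowest genes of other lists, genes past 1.5-fold, and transcripts at 10% or more. Some list genes are not reported here by name. Genes overlapping a member were named after their values were seen. Promoter windows are from RefSeq. Alternatives were the M4 tables, each library alone, other scalings, thresholds, prior counts and summaries. R 4.3.3, edgeR 4.0.16, DESeq2 1.42.0 (size factors only), scipy 1.17.1, pandas 2.3.3, numpy 2.4.6, Biopython 1.88 and matplotlib 3.10.9 under Python 3.11.15 were used.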

Additional observations from a re-analysis of the deposited data

How the results depend on the processing

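The median level of the 10 genes, 16.7 TPM, was 20.7 TPM when TPM was rescaled to nuclear protein-coding genes, and 15.9 to 18.4 TPM with 1 library left out. The log2 ratio of summed factors to summed effectors, 2.39, was 1.23 as a difference of median log2(TPM + 1), and 2.26 to 2.51 with 1 library left out. All 10 genes stayed at 1 TPM or more in either library alone (10 to 10), and 9 passed 5 TPM. The number of members past 1.5-fold between libraries, 2, was 1 with ERCC scaling and 1 as a TPM ratio with a pseudocount of 1, where Lhx4 alone was past it. It was 0 at 2-fold, and 6 at a log2 ratio of 0.32, with 2 higher and 4 lower. With DESeq2 size factors, no low-count filter, the other prior counts or the M4 tables it was 2. The median leading-transcript share, 67.7%, was 80.4% in the M4 tables and 65.2% to 70.2% with 1 library left out. No direction reversed under these alternatives. ERCC scaling moved the median log2 ratio of all genes to 0.05. A difference between libraries cannot be computed with 1 left out. No paired analysis was possible because there is 1 group.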

Other observations

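Lists of cells outside the neural lineage were also measured. For comparison, 60.9% of protein-coding genes had at least 1 TPM in both libraries. Red blood cell genes reached 1 TPM in both libraries in 8 of 9 cases, led by the embryonic globin Hbb-y at 5424.65 and 5309.28 TPM, and none was past 1.5-fold (median log2 ratio -0.01). All 5 endothelial genes reached 1 TPM, led by the tight junction gene Cldn5 at 44.0 ± 1.46 TPM, with none past 1.5-fold and a median of 0.17. Of 6 sympathetic and visceral motor genes, 2 reached 1 TPM in both libraries. Th, the enzyme that starts catecholamine synthesis, led them at 16.9 and 22.1 TPM, while Tbx20 at -1.14 and Hand2 at -1.17 were past 1.5-fold lower in replicate 2, with at most 46 counts per library.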
